A study of Mus musculus with 2 samples.

Results

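Megalin (Lrp2) and the endocytic receptors related to it were examined in cultured mouse ovaries with 9 genes, out of 20658 genes named on the array. They are megalin, its co-receptor cubilin (Cubn), the cytoplasmic adaptor Dab2, the chaperone Lrpap1, and the receptors Lrp1, Vldlr, Lrp8, Lrp5 and Lrp6. The set was chosen with measured values in view, because the ratio of Lrp2 between these arrays was already known, so the ratios given here are a description. Every probe of the 9 genes was taken, which gave 14 probes, each printed at 1 spot.

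The study asked which ovarian genes respond to tachykinins (TKs), neuropeptides that act through the receptors (TKRs) TACR1, TACR2 and TACR3. Ovaries of 2-week-old mice were divided into symmetrical pieces and kept in culture for 3 days. The TKR agonist group received [Sar9, Met(O2)11]-SP for TACR1, GR-64349 for TACR2 and a succinylated [Asp, N-Me-phe8] analogue of a substance P fragment for TACR3, and the TKR antagonist group received antagonists of the same receptors, among them GR-94800 for TACR2 and SB218795 for TACR3, each ligand at 1 μM. Total RNA of each group was hybridised to 1 single-colour oligonucleotide array, on which a probe's fluorescence follows the amount of its transcript. The study's text speaks of the antagonists as given together and does not say so of the agonists. The number of ovaries behind each RNA and the strain of these mice are not given in the sources used here. No array of untreated ovaries was analysed here, so a ratio does not tell which group departed from the untreated state. With 1 array per group there was no replicate and no statistical test, and the number of arrays limits the precision of every ratio.

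Receptors of the low-density lipoprotein (LDL) receptor family bind lipoproteins, protease complexes, vitamin carriers and other ligands at the cell surface and carry them into clathrin-coated pits. Megalin is an apical receptor of absorptive epithelia such as the renal proximal tubule, where it works together with cubilin, which has no transmembrane part of its own and is held at the membrane by amnionless (Amn). Vldlr and Lrp8 are receptors for apolipoprotein E and reelin, whereas Lrp5 and Lrp6 serve mainly as co-receptors for Wnt proteins.

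Between the arrays, Lrp2 with the agonists was at least 11.3-fold higher and Cubn at least 1.87-fold higher. The other 7 genes had log2 ratios, agonists minus antagonists, from -0.65 to 0.28, so none of them reached 2-fold. Lrp2 and Cubn were the members measured well above background with the agonists only, and their promoters are shown for that reason. The windows run from 250 bases before to 50 bases after the gene start and come from the RefSeq annotation of GRCm38.p6, in which both genes lie on the minus strand. The Lrp2 window is chr2:69585980-69586279, and capitals mark its matches to the GC box GGGCGG. The Cubn window is chr2:13491827-13492126, and capitals mark its match to the STAT site TTCNNNGAA. Both are written 5′ to 3′ on the strand of the gene.
Lrp2: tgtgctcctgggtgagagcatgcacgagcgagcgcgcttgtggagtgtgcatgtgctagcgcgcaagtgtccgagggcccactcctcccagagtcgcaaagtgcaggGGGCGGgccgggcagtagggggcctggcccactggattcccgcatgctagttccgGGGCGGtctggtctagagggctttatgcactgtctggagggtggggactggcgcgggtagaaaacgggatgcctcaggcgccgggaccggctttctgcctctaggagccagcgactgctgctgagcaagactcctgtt
Cubn: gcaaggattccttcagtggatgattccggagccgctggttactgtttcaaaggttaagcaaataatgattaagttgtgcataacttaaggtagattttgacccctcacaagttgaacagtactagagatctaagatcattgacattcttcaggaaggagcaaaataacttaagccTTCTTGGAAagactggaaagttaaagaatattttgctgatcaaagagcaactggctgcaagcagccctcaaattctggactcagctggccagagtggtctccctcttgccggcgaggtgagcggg

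The Lrp2 promoter had a GC content of 65.0% with 20 CpG dinucleotides, and the Cubn promoter 44.3% with 5 CpG, against medians of 52.7% and 7 over 32851 mouse promoter windows of the same length. Counted from the gene start, the GC boxes of Lrp2 began at positions -143 and -88 and the STAT site match of Cubn at -75. Windows were found for 7 of the 9 genes, 11 windows in all. On either strand, 4 of the 11 windows held a GC box (Lrp1, Lrp2, Lrpap1, Vldlr), against 35.7% of the 32851 windows. A STAT site match was found in 3 of the 11 (Cubn, Dab2, Lrp1), against 8.30%. These shares were not tested. A CCAAT box was found in 1 of the 11 windows, in Vldlr, against 37.4% of the 32851. None of the 11 windows held TATAAA (13.6% of the 32851), the AP-1 site TGANTCA (7.81%) or the E-box CACGTG (7.15%). The motifs searched do not overlap each other in the 2 windows shown, and a match describes letters only.

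Signals are given in the units of the image analysis software, after its background correction, with the software's own error of the spot. A log2 ratio is the log2 signal with the agonists minus that with the antagonists, each set relative to the 75th percentile of all non-control spots of that array (672 and 569 units). Among the 59305 spots that are not controls, 65.4% and 61.6% were well above background by the software's criterion, and 0 were saturated. All 7 oocyte and all 7 granulosa cell markers were measured on both arrays, as markers of the labelled tissue. The log2 ratio had a median of -0.10 and an SD of 0.43 over the 33073 probes that passed this criterion on both arrays. Of these probes 890 (2.69%) had a ratio of 2-fold or more towards the agonists and 233 (0.705%) towards the antagonists. Unscaled signals gave 1499 and 98, and signals scaled to the spike-in controls 1625 and 88. These choices raised the median of all probes by 0.24 and 0.28, so the direction of a member near 0 depends on the scaling.

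Of the 14 member probes, 10 were well above background on both arrays, 3 on the agonist array only and 1 on neither. A gene is represented below by its brightest probe. At least 1 probe of each of the 9 genes was well above background on at least 1 array, 7 on both arrays and 2, Lrp2 and Cubn, on the agonist array only. Over all 16282 genes measured on at least 1 array, 5.21% were measured on the agonist array only and 1.08% on the antagonist array only. With the agonists 1 of the 9 members was at least 2-fold higher, where 4.51% of all genes were, and 0 were at least 2-fold lower, where 0.854% of all genes were. Because Lrp2 led to the choice of the set, nothing is read from these counts.

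**Figure D1:**
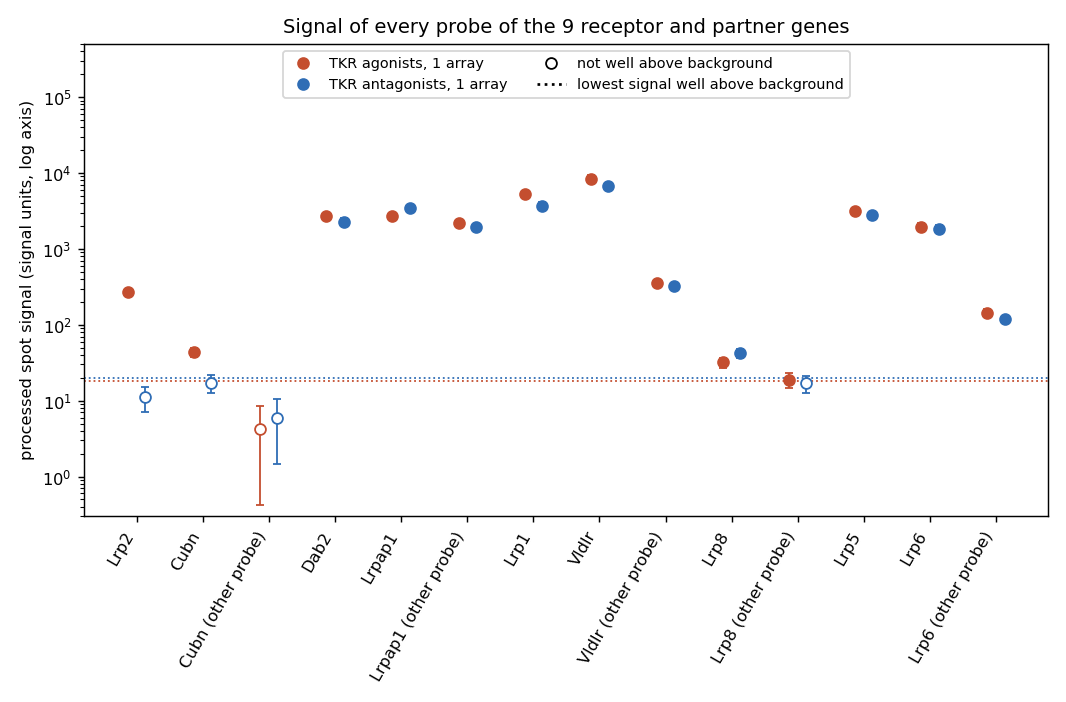
Processed signal of the 14 probes on the agonist array (red) and the antagonist array (blue), on a log axis in signal units. Bars are the software's error of the spot, which is smaller than the symbol for the bright probes, and the lower bar of the second Cubn probe on the agonist array reaches below 0 and is cut short. Open symbols are signals not well above background, and the dotted lines are the lowest signals that were, 18.1 and 19.9 units; Lrp2 is the member whose symbols lie farthest apart.

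Megalin gave the widest separation of the 9 genes. The signal of Lrp2 was 266.7 ± 26.9 units with the agonists and 11.2 ± 4.14 units with the antagonists (spot error, 1 array each). The agonist value was well above background, whereas the antagonist value was not well above background but was still marked as positive and significant against the local background. Against the lowest signal well above background on the antagonist array, 19.9 units, Lrp2 with the agonists was at least 11.3-fold higher. Taken at face value, the log2 ratio was 4.34 with a spot error of 0.55, but the antagonist value lies in a range where repeated spots scatter. For 63 other probes with a mean antagonist signal of 5 to 20 units, repeated spots of a probe gave a median SD of the log2 ratio of 0.62, against 0.06 for 214 probes above 200 units.

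The image values before correction had the same order. The median pixel of the Lrp2 spot was 323 (agonists) and 54 (antagonists) in scanner units, while the local background was 35 and 38. Of the 308 negative control spots, 0 reached the Lrp2 signal on the agonist array and 4 reached it on the antagonist array, where their median was 4.37 units. Around the Lrp2 spot, 15 of 24 neighbouring spots were well above background on both arrays, and their unscaled log2 ratios ran from -0.07 to 2.15 with a median of 0.33. The spot was marked neither as an outlier nor as saturated on either array.

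Among all 2874 probes well above background on the agonist array only, 2021 had a lower bound above 1 and 276 a lower bound of at least 2-fold. The bound of Lrp2 ranked 3 of them, and the highest was 15.0-fold. This rank belongs to the values that led to the choice of Lrp2. Under other scalings the bound lay between 10.9 and 13.7, and with normexp background correction, which adds an offset of 50 units, it was 3.52. Lrp2 had 1 probe, so no other probe of the gene could be set beside it.

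**Figure D2:**
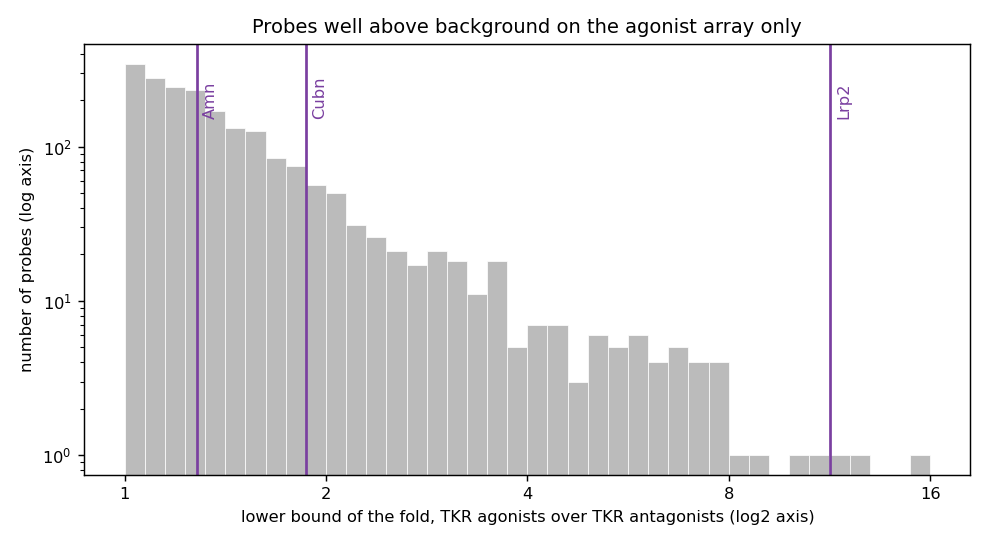
Number of probes (log axis) by the lower bound of the fold, agonists over antagonists (log2 axis), for probes well above background on the agonist array only with a bound above 1. Lines mark Amn at 1.28-fold, Cubn at 1.87-fold and Lrp2 at 11.3-fold, the last in the sparse upper end.

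Cubilin, the peripheral membrane receptor that megalin helps to internalise, was also measured with the agonists only, but much closer to its limit of detection. Its brighter probe gave 44.0 ± 5.91 units with the agonists and 17.0 ± 4.51 units with the antagonists, the latter not well above background. Cubn with the agonists was at least 1.87-fold higher, below the 2-fold threshold, and at face value the log2 ratio was 1.13 with a spot error of 0.43. The other Cubn probe was not well above background on either array, with 4.23 ± 4.25 and 5.94 ± 4.49 units, so it gives no direction. The bound of the brighter probe was 2.21 without scaling, 2.26 with spike-in scaling, 2.01 on the authors' summary values and 1.06 with normexp, so whether Cubn passed 2-fold depended on the processing.

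Amn, which anchors cubilin in the membrane, had a signal of 30.2 units with the agonists and of 16.6 units with the antagonists, not well above background. Its lower bound was 1.28-fold. Lrp2, Amn and the brighter Cubn probe were thus well above background with the agonists only. This held for 5.21% of all genes measured on at least 1 array, and 1.08% were measured with the antagonists only. Of the 3 genes, only Lrp2 exceeded its limit of detection by a wide margin. Nothing is read from the 3 together, because Lrp2 led to the choice of the set. Amn belongs to the list of adaptors and was not among the 9 members.

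The cytoplasmic and secretory partners of megalin did not share its ratio. Dab2, a clathrin adaptor that binds the tails of megalin and other family members, gave 2670 ± 267 units with the agonists and 2284 ± 228 with the antagonists. After scaling, its log2 ratio was -0.02 with a 95% interval of the spot error from -0.42 to 0.38. Of 9 settings, the 75th percentile and 8 alternatives to it, 7 put the ratio above 0 and 2 below, so Dab2 has no direction here.

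Lrpap1, the receptor-associated protein, keeps ligands off the receptors of this family in the endoplasmic reticulum. Its brighter probe gave 2737 ± 274 units with the agonists and 3462 ± 346 with the antagonists. This is a log2 ratio of -0.58 (95% interval of the spot error, -0.98 to -0.18). It was below 0 in all 9 settings, from -0.64 to -0.31, and 95% of the probes on both arrays had a higher ratio. The other Lrpap1 probe gave 2179 ± 218 and 1954 ± 195.5 units and a log2 ratio of -0.08, which was above 0 in 6 of 9 settings. The ratios of these probes differed by 0.50, within the 95% margin of 0.57 that the spot errors give, so the lower value of Lrpap1 rests on 1 of its 2 probes.

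**Figure D3:**
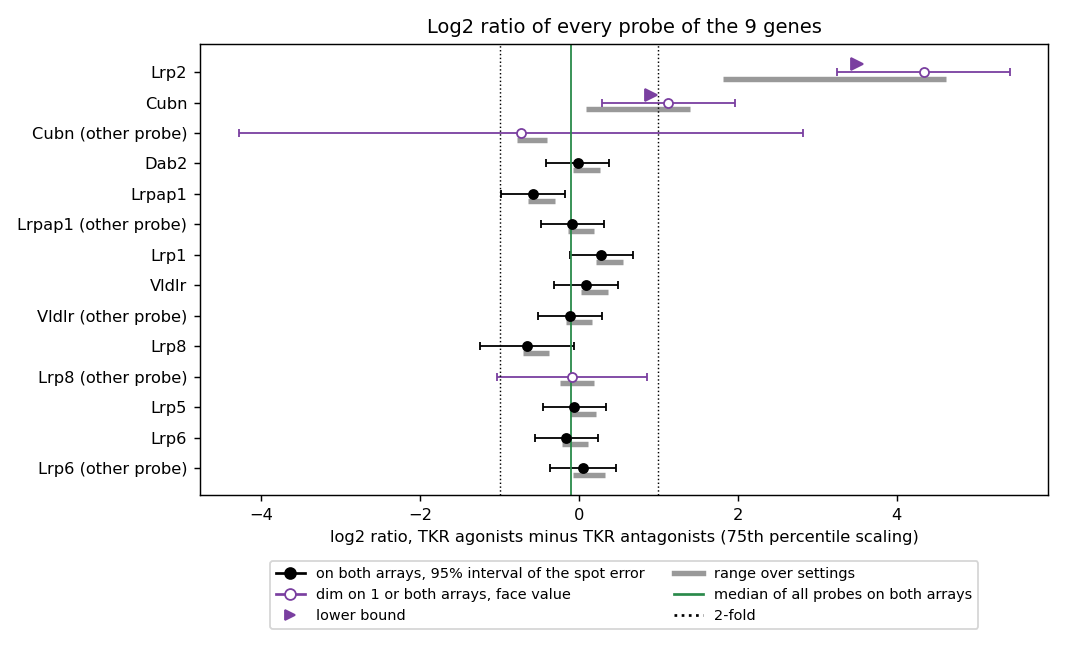
Log2 ratio, agonists minus antagonists, of every member probe. Filled points are probes on both arrays with the 95% interval of the spot error, open points are face values of probes dim on 1 or both arrays, triangles are lower bounds and grey bars the range over the settings; the probes on both arrays lie between -0.65 and 0.28, to the left of the Lrp2 bound.

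Lrp1, a broadly expressed receptor for protease complexes and apolipoprotein E remnants, had the highest ratio of the members measured on both arrays. Its signal was 5337 ± 534 units with the agonists and 3715 ± 371 with the antagonists. The log2 ratio was 0.28 (95% interval of the spot error, -0.12 to 0.68), or 1.22-fold. It was above 0 in all 9 settings, from 0.22 to 0.56, although the interval of the spot error held 0 and 15.4% of all probes on both arrays had a higher ratio.

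Vldlr, the very-low-density lipoprotein receptor, takes up yolk precursors in oocytes of egg-laying animals and binds reelin in mammals. Its brighter probe gave 8422 ± 842 units with the agonists and 6719 ± 672 with the antagonists. Its log2 ratio of 0.08 stayed between 0.03 and 0.36 over the settings. The other probe gave 353 ± 35.5 and 322 ± 32.5 units and a log2 ratio of -0.11, above 0 in 2 of 9 settings. The probes differed by 0.20 with a margin of 0.57, and the direction of Vldlr depended on the probe.

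Lrp8, the apolipoprotein E receptor related to Vldlr, had the lowest ratio of the members. Its brighter probe was close to the detection limit on both arrays, at 32.1 ± 4.98 units with the agonists and 42.7 ± 6.0 with the antagonists. The log2 ratio was -0.65 (95% interval of the spot error, -1.25 to -0.06), which lay between -0.71 and -0.38 in the 9 settings, and 96.4% of the probes on both arrays had a higher ratio. Repeated spots of 71 probes between 20 and 200 units had a median SD of the log2 ratio of 0.17. The other Lrp8 probe was well above background with the agonists only, at 18.9 ± 4.06 against 16.9 ± 4.33 units, and its bound was under 1, so no fold is given. At face value its log2 ratio was -0.09, above 0 in 4 of 9 settings. The probes differed by 0.57 with a margin of 1.12, so the lower value of Lrp8 rests on 1 of its 2 probes.

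The Wnt co-receptors had ratios near the median of all probes. Lrp5 gave 3131 ± 313 units with the agonists and 2757 ± 276 with the antagonists, with a log2 ratio of -0.06 (95% interval of the spot error, -0.46 to 0.34) that was above 0 in 6 of 9 settings. Lrp6 gave 1963 ± 196 and 1854 ± 185 units on its brighter probe, with a log2 ratio of -0.16 that was above 0 in 2 of 9 settings. Its other probe gave 144 ± 14.9 and 118 ± 12.5 units and a log2 ratio of 0.05, above 0 in 6 of 9 settings. Neither co-receptor had a direction that held over scalings and probes.

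Over the 7 members measured on both arrays, the log2 ratios ran from -0.65 to 0.28 with a median of -0.06, against -0.10 for all probes on both arrays. Of these, 2 (Lrp1 and Vldlr) were above 0 and 5 below it, and 5 lay within 1 SD of the median of all probes. The number above 0 was 5 without scaling or with spike-in scaling, 3 with normexp and 2 with scaling on the median. On the brightest probe of each gene, Lrp1 and Vldlr were above 0, and Lrp8 and Lrpap1 below 0, under every setting. The order from lowest to highest was Lrp8, Lrpap1, Lrp6, Lrp5, Dab2, Vldlr and Lrp1. The widest step between neighbours, 0.42 from Lrpap1 to Lrp6, was within the margin of 0.57 that the spot errors give at 95%. Members farther apart in the order were not compared in this way. The 95% intervals of the spot error of Lrpap1 (brighter probe, -0.98 to -0.18) and Lrp1 (-0.12 to 0.68) did not overlap.

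**Figure D4:**
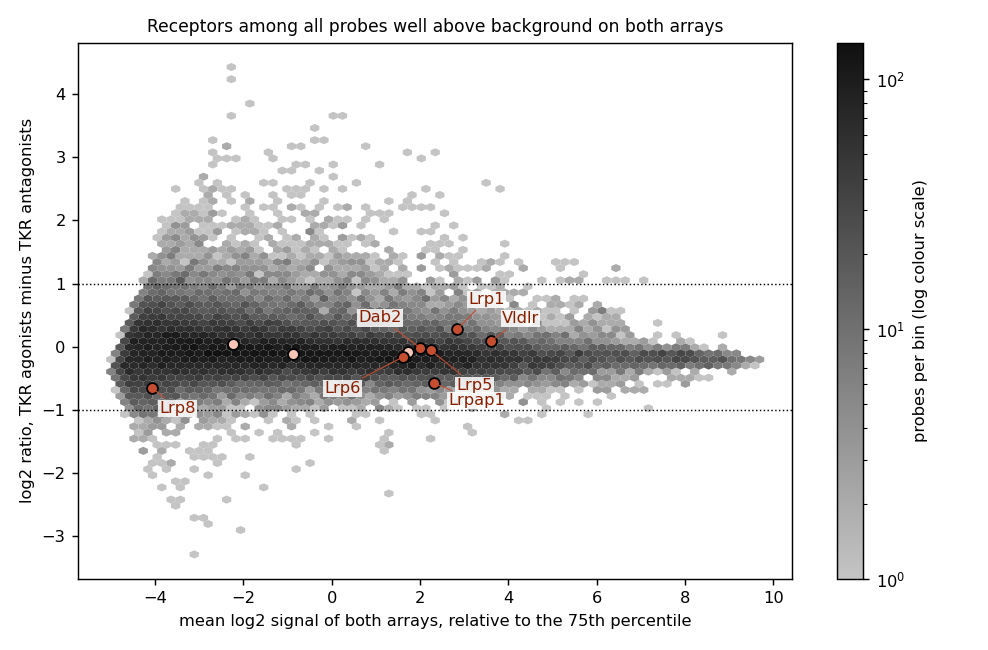
Log2 ratio of all 33073 probes well above background on both arrays against their mean log2 signal relative to the 75th percentile, with shading for the number of probes per bin. Red points are the representing probes of 7 members and pale points their other probes; all lie between the dotted 2-fold lines, and Lrp8 is at the dim end.

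Genes that act with these receptors were grouped by role. In the other members of the LDL receptor family, 9 of 11 were measured on both arrays, 5 above and 4 below 0, with a median log2 ratio of 0.05 and 0 past 2-fold in either direction. Among the brightest of the list were Ldlrad3 at 70102 and 57401 units (log2 ratio 0.05) and Lrp10 at 2821 and 2440 units (-0.03). Chaperones and regulators of the receptors had 9 of 10 genes on both arrays, 3 above and 6 below 0, a median of -0.12 and 0 past 2-fold. Mesd, a chaperone that folds Lrp5 and Lrp6, gave 14930 and 17686 units and a log2 ratio of -0.49, below 0 under all 8 alternatives. Hsp90b1 (-0.12) and Calr (-0.19), general chaperones of the endoplasmic reticulum, were nearer to the median of all probes.

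No gene of the uptake machinery was past 2-fold. Adaptors had 15 of 16 genes on both arrays, 7 above and 8 below 0, with a median of -0.08, and Amn on the agonist array only. The brightest were the AP-2 subunits Ap2m1 (17079 and 18224 units, -0.34, with -0.12 and -0.31 on its other probes) and Ap2s1 (4234 and 4105 units, -0.20), and Shc1 (5189 and 4068 units, 0.11), a signalling adaptor. All 10 genes of the clathrin coat were on both arrays, 2 above and 8 below 0, with a median of -0.09. Among these was the clathrin light chain Clta (23385 and 24425 units, -0.30, with -0.11 on its other probe). So were the accessory proteins Epn1 (24490 and 21319 units, -0.04) and Itsn1 (112306 and 105161 units, -0.15, with -0.42 to 0.08 on its other probes). Both medians lay close to the median of all probes and were above 0 in 5 of the 8 alternatives for the adaptors and in 4 for the coat.

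The ligands of megalin and Lrp1 held the highest ratios of the pathway lists on both arrays. Of 23 ligand genes, 16 were measured on both arrays, 11 above and 5 below 0, with a median log2 ratio of 0.58 against -0.10 for all probes. At least 2-fold higher with the agonists were 7 of the 17 measured on at least 1 array and 0 were 2-fold lower, beside 4.51% and 0.854% of all genes, and over the 8 alternatives the number higher was between 6 and 8. Genes of the list were picked for binding these receptors, with earlier results of these data known, and no test was made of the list.

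The matrix protein Ccn2 had the highest ratio of the ligands, with 5100 units with the agonists and 834 with the antagonists (log2 ratio 2.37). Igfbp3, a carrier of insulin-like growth factors, gave 5821 and 1058 units (2.22), and transferrin, Trf, the iron carrier, gave 5871 and 1400 units (1.83), with 1.92 on its other probe. These log2 ratios stayed above 1 under all 8 alternatives.
The plasminogen activators differed from each other in their ratios. Urokinase, Plau, gave 1224 and 432 units (1.26), while Plat, the tissue type activator, gave 2437 and 1773 units (0.22). Lcn2, an iron siderophore carrier bound by megalin, gave 503 and 167 units (1.35), and the matrix glycoprotein Thbs1, a ligand of Lrp1, gave 6395 and 2699 units (1.003), on the threshold itself and between 0.94 and 1.28 over the scalings.
The brightest ligands had smaller ratios. Apolipoprotein E, Apoe, gave 58175 and 36911 units (0.42), clusterin, Clu, 48688 and 41754 units (-0.02), and midkine, Mdk, 7035 and 6465 units (-0.12). The retinol carrier Rbp4, a classic megalin ligand, gave 3968 and 2487 units (0.43). The vitamin D carrier Gc was well above background with the agonists only, at 22.2 against 15.6 units, with no fold because its bound was under 1. Apob, Reln, A2m, Mmp9, Alb and Cblif, the intrinsic factor bound by cubilin, were not well above background on either array.

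Partners of Lrp5 and Lrp6 in Wnt signalling were closer to the receptors. Of 19 genes, 14 were on both arrays, 8 above and 6 below 0, with a median of 0.07, and 2 of the 15 measured on at least 1 array were at least 2-fold higher and 0 lower, beside 4.51% and 0.854% of all genes. The number higher was 1 with scaling on the median and with normexp. The frizzled receptor Fzd1 gave 4411 units with the agonists and 1856 with the antagonists (log2 ratio 1.01, 0.95 to 1.28 over the scalings). Rspo1, a secreted enhancer of Wnt signalling needed for ovarian differentiation, gave 4401 and 1755 units (1.08, 1.0 to 1.36). The secreted Wnt inhibitor Dkk2 was well above background with the agonists only, at 35.7 against 4.24 units, at least 1.52-fold higher. Dkk3 (13074 and 10259 units, 0.11) and the kinase Gsk3b (6351 and 6204 units, -0.21) were the brightest others, and the other Gsk3b probes disagreed, with -0.14 and 0.41.

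**Figure D5:**
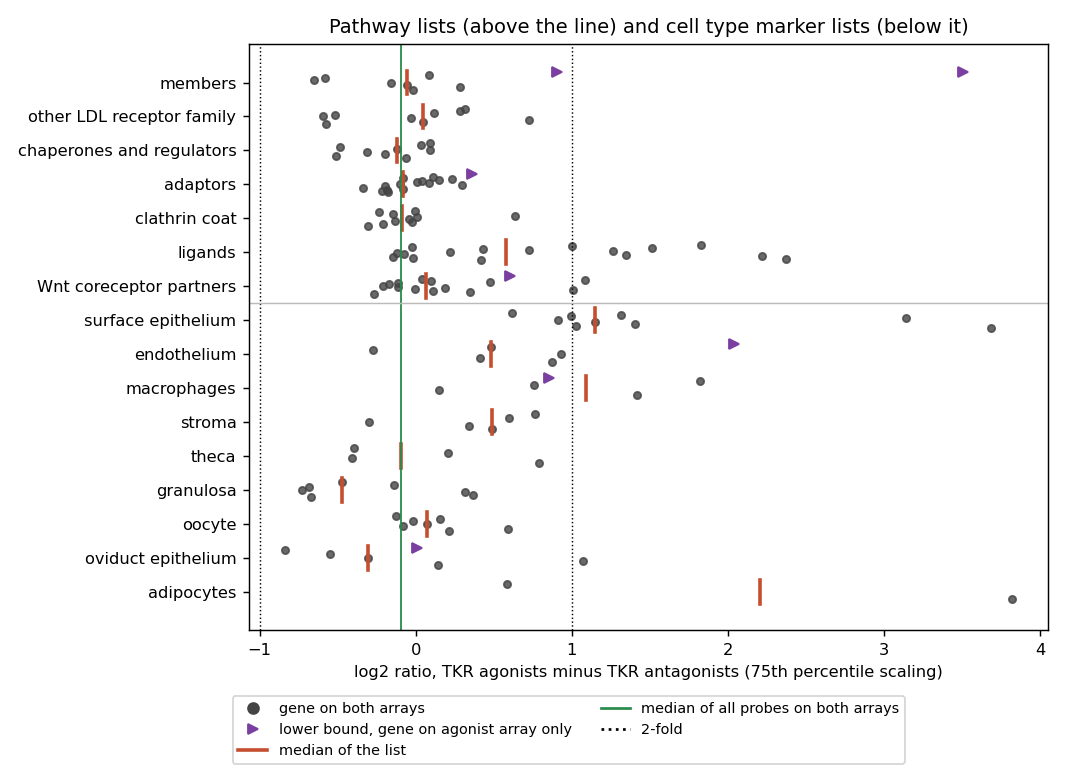
Log2 ratio, agonists minus antagonists, of every gene measured on both arrays in the lists of pathway genes (above the line) and cell type markers (below it), with triangles for lower bounds, orange ticks for list medians and the green line at -0.10, the median of all probes. The members, adaptors and clathrin coat lie around the green line, whereas the ligands and the surface epithelium reach above 2-fold.

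Since whole pieces of ovary were used, fewer cells of a type and less RNA per cell cannot be told apart. Marker genes of the ovarian cell types differed between the arrays along with Lrp2. Of 10 markers of the ovarian surface epithelium, 9 were measured on both arrays and 9 were higher with the agonists, 6 of them at least 2-fold, beside 4.51% of all genes, with a median log2 ratio of 1.15. The number past 2-fold was between 4, with normexp, and 8 over the 8 alternatives. This list too was chosen with earlier results of these data known, so nothing is read from its counts, and no test was made of it. The summed signal of these markers was 28891 units with the agonists and 10235 with the antagonists. Summed signals here and below are unscaled and cover the genes of a list measured on at least 1 array. Medians are scaled and cover the genes on both arrays. The agonist array was the brighter, with a 75th percentile of 672 against 569 units. Keratins Krt18 (12453 and 5166 units, 1.03), Krt19 (7501 and 2400 units, 1.40) and Krt7 (706 and 270 units, 1.15) were among them. Dmkn (2678 and 176 units, 3.68, with 3.64 on its other probe) and Lgals7 (1126 and 108 units, 3.14), both of stratified epithelia, had the highest ratios of this list. No marker measured here was at 0, and Muc16 had no named probe.

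Epithelial markers that the oviduct also expresses lay on both sides of 0. Of 6 such markers, 2 were above and 3 below 0 on both arrays, with a median of -0.31 and summed signals of 721 and 684 units. Epcam was higher with the agonists (182 and 73.2 units, 1.07) and the oviduct product Wfdc2 lower (200 and 302 units, -0.83, with -0.41 on its other probe). Pax8, a transcription factor of the oviduct and kidney tubule, was well above background with the agonists only, at 23.7 against 13.8 units, with a bound of 1.01.

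Other cell types of the ovary were spread on both sides. Macrophage markers had 4 of 6 genes on both arrays, all higher, with a median of 1.09 and summed signals of 7352 and 4934 units. Mrc1, itself an endocytic receptor, had the highest ratio of them, with 588 and 141 units (1.82). Csf1r, the brightest, gave 5607 and 4285 units (0.15), with 0.04 and -0.09 on its other probes. Endothelial markers had a median of 0.48 over 5 genes, 4 above and 1 below 0 (summed signals 40749 and 30846 units). Stromal markers had a median of 0.49 over 5 genes, 4 above and 1 below 0 (173009 and 119580 units). Of the endothelial markers, Tek with the agonists was at least 4.10-fold higher, Cdh5 gave a log2 ratio of 0.88 and Egfl7 of 0.41, while Kdr gave 15076 and 15399 units and -0.27, with 0.38 on its other probe. Granulosa cell markers had a median of -0.47 over 7 genes, 2 above and 5 below 0, from -0.73 to 0.37 (64906 and 71429 units). Theca markers had a median of -0.10 over 4 genes, 2 above and 2 below 0, from -0.41 to 0.79 (57232 and 47827 units). The median of the oocyte markers was 0.07 over 7 genes, 4 above and 3 below 0 (158408 and 138732 units). Of 5 adipocyte markers, Fabp4 was higher with the agonists (739 and 44.2 units, 3.82), Plin1 gave 73.2 and 41.3 units (0.59), and Adipoq and Lep were not well above background on either array, with summed signals of 832 and 97.4 units for the list. The part of any of these cell types in the value of Lrp2 was not tested.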

How the data were processed

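Total RNA of cultured mouse ovaries was measured on 2 Agilent single-colour arrays, 1 with TKR agonists and 1 with TKR antagonists, which shared a slide. The authors deposited the intensity of every spot on a linear scale, as processed by Agilent Feature Extraction 10.10.1.1 (version per the file headers) after background correction and with no scaling between arrays, with marks for outliers, saturation and signal well above background. The deposited summary table of intensities equals these values times 1.99 (agonists) and 2.19 (antagonists) and served as an alternative. Groups were taken from the sample titles.

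Control spots and spots marked as outliers were left out, the log2 of each array's 75th percentile was subtracted from the log2 intensity, and spots of a probe were averaged, which gave 55674 probes. A probe was called well above background if over 50% of its spots were, and a gene was represented by its brightest such probe. For a probe dim on 1 array, the bright value was divided by that array's lowest signal well above background, or by the dim value where that was higher, as a lower bound. The 95% intervals are 1.96 times the software's spot error and cover the measurement, not ovaries. RefSeq transcripts of GRCm38.p6 gave symbols for 27230 probes, and 453 of 26531 probes with an NM identifier and 3218 with an Ensembl name stayed unnamed. The array was designed on another assembly, so only promoter windows have coordinates.

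The members and lists were chosen with earlier results of these data known. All member probes are named, with the list genes past 2-fold and the 3 brightest of each list, and a few further ligands and markers for their role, chosen after their values were seen; 2 list genes that the rule names are counted in their lists but not reported here. Other settings tried were unscaled signals, scaling by the median, by probes of both arrays or by 8 spike-in probes, quantile normalization, loess (span 0.3), normexp (offset 50, limma 3.58.1, R 4.3.3) on the median spot signal, the authors' summary values, other filters on dim probes, outlier spots kept, and thresholds of 1.5-fold and 4-fold. Python 3.11.15, numpy 2.4.6 and pandas 2.3.3 were used. On simulated data with a noise SD of 0.15 (log2) on each array, the calculation found 200 of 200 probes shifted by 2, with 0 others called. That shift lies far past the 2-fold threshold at this noise, so the simulation checks the calculation and not the precision of the real ratios. Its 33073 probes were well above background on both arrays, so lower bounds were not covered.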

Additional observations from a re-analysis of the deposited data

How the results depend on the processing

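No value past 2-fold changed direction under an alternative that was run, whereas the ratios of Dab2, Lrp5 and Lrp6 (brighter probe) and the median over the members lay on either side of 0 (median from -0.11 to 0.22). Of the member values that were recomputed, 124 moved by less than the 95% margin of the spot error, and normexp lowered those of Lrp2 to 1.82 and of the brighter Cubn probe to 0.09 (log2). The lower bound of Lrp2 was 11.3-fold and, with normexp, 3.52-fold. The number of member genes at least 2-fold higher was 1. It was 2 without scaling, with spike-in scaling, with the authors' summary values and without a filter on dim probes, and also at a threshold of 1.5-fold, where 1 member was lower, and 0 when probes dimmer than the 75th percentile were dropped, which leaves Lrp2 out.

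Probes at least 2-fold higher and lower numbered 890 and 233. They numbered 1499 and 98 unscaled, 410 and 60 with normexp, 1625 and 88 after spike-in scaling, 1099 and 149 on the authors' values, 3339 and 2333 without a filter, 231 and 31 among bright probes, 2299 and 1620 at 1.5-fold and 127 and 18 at 4-fold. The share higher was 79.3%, against 93.9% unscaled and 94.9% after spike-in scaling. Among bright probes the macrophage list was left with Csf1r alone, at 0.15. The adipocyte median of 2.20 was over 2 genes, Fabp4 and Plin1. It fell to 1.38 with normexp and to 0.53 without a filter, where dim genes count. The causes were not tested.

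Signal over background limits the values of Lrp2, Cubn and Lrp8. With 1 array per group no replicate was left out. For the same reason no paired analysis was possible and no test was made. Ovaries were cut into symmetrical pieces, but the matching of pieces between the groups is not given in the sources used here.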
